A study of Mus musculus with 7 samples.

Results

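The 36 genes described here mark the cells of blood and lymphatic vessels: the endothelial cells that line them and the pericytes, contractile cells that wrap small vessels. They were taken by gene symbol from a deposited table of 38579 gene rows, and each of the 36 symbols was found in 1 row. The genes were listed by known role, with earlier results of these data known, and 31 of them reached 1 FPKM in at least 2 of the 7 libraries and were tested. FPKM is a level per transcript length and per sequenced fragment. Flt4, Sox17, Vwf, Robo4 and Aplnr stayed under that minimum, so counts over the tested genes do not describe them.

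The libraries hold RNA of primary mouse mammary cells of strain CD1 at E17.5 (embryonic day), sorted in a pair of ways so that the sorting strategies could be compared. The first sort, on CD24 and CD49f, gave 2 libraries of cells positive for both (CD24+CD49f+ fMaSC, labelled fetal mammary stem cells) and 2 of CD24low cells labelled stroma. The second, on EpCAM and a fluorescent Sox10-Venus reporter, gave 2 libraries positive for both (Sox10+EpCAM+ fMaSC) and 1 EpCAM-negative stroma library whose title adds Sox10-negative. They are called the CD24 sort and the Sox10 sort. The titles or column names mark all 7 as lineage-negative, but the antibodies of that depletion, the number of embryos pooled and the construction of the reporter are not given in the sources used here. With 1 library, the EpCAM-negative group has no spread of its own, and each test that uses it assumes that it varies like the other groups. In sorted bulk RNA, fewer cells of a type and less RNA per cell cannot be told apart.

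Endothelial cells carry CD31 (Pecam1) and VE-cadherin (Cdh5) at their junctions and grow under vascular endothelial growth factor, whose receptors Kdr and Flt1 serve blood vessels and Flt4 the lymphatics. Angiopoietins act through the receptor Tek, with Angpt1 supplied by perivascular cells and Angpt2 released by endothelium as its context-dependent antagonist. Pericytes are recognised by Rgs5, the channel subunits Kcnj8 and Abcc9 and the proteoglycan Cspg4, and lymphatic endothelium by the transcription factor Prox1 and the hyaluronan receptor Lyve1. Lineage depletion of mammary cell suspensions commonly uses antibodies to blood, endothelial and erythroid surface proteins, and CD49f, the integrin alpha 6 chain, is also borne by endothelium.

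The vascular genes did not follow 1 pattern across the sorts. Cd34, Tek, the ligand Angpt1 and the pericyte genes other than Mcam had their highest levels in the stromal fractions, intermediate ones in CD24+CD49f+ fMaSC and their lowest in Sox10+EpCAM+ fMaSC. Of the 6 pericyte genes, 3 were lower than in the matched stroma in the CD24 sort (all genes, 2.94%). In the Sox10 sort 5 were lower (all genes, 13.6%). Lymphatic Lyve1 and Prox1 and the tight-junction gene Cldn5 exceeded CD24low stroma in the CD24+CD49f+ fraction. The junction genes Pecam1 and Cdh5, the receptor Kdr and the transcription factor Erg passed the test against the matched stroma in neither sort. By group mean, 16 of the 36 genes had their highest level in CD24+CD49f+ fMaSC, 12 in CD24low stroma, 7 in EpCAM-negative stroma and 1, Mcam, in Sox10+EpCAM+ fMaSC, where 29 had their lowest.

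**Figure D1:**
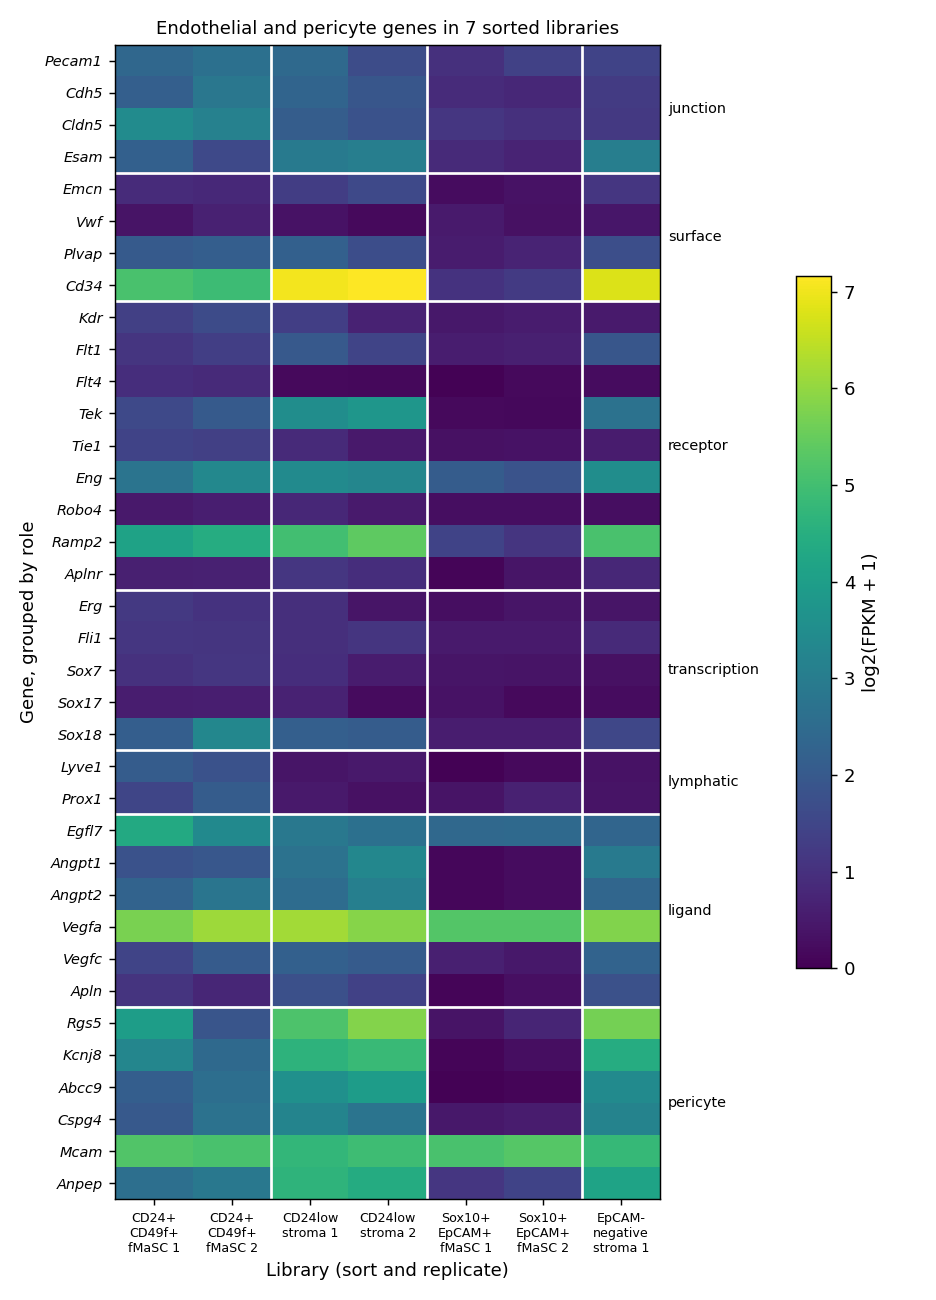
Level of each of the 36 genes, as log2(FPKM + 1) in colour, in the 7 libraries (columns) with genes grouped by role (rows). Pericyte genes other than Mcam are bright in the 3 stromal libraries and dark in both Sox10+EpCAM+ libraries, while Lyve1, Prox1 and Cldn5 are brightest in both CD24+CD49f+ libraries.

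In limma's test across 14418 genes, 3 of the 31 tested vascular genes were higher in the CD24+CD49f+ fraction than in its CD24low stroma (all genes, 7.78%) and 7 were lower (all genes, 2.94%), at a Benjamini-Hochberg adjusted p under 0.05. Their median log2 fold change was -0.28, beside 0.13 over all genes tested. Between Sox10+EpCAM+ fMaSC and EpCAM-negative stroma, 0 were higher (all genes, 12.5%) and 17 were lower (all genes, 13.6%), with a median of -1.10 beside 0.09. All log2 fold changes are differences of log2(FPKM + 1), which understates the change of genes with low levels. The 7 genes lower in the first sort, Cd34, Kcnj8, Tek, Anpep, Abcc9, Angpt1 and Esam, were also among the 17 of the second. A further 11 tested genes passed in neither sort: Pecam1, Cdh5, Kdr, Tie1, Egfl7, Erg, Fli1, Sox7, Sox18, Mcam and Vegfa. Scaling the libraries to the same sum (TPM) ended the CD24-sort calls of Cldn5, Esam, Prox1, Abcc9, Angpt1 and Anpep and the Sox10-sort call of Plvap. With no minimum on level, more genes entered the adjustment, and the CD24-sort calls of Esam, Prox1, Kcnj8, Abcc9 and Angpt1 and the Sox10-sort calls of Flt1 and Plvap were lost.

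**Figure D2:**
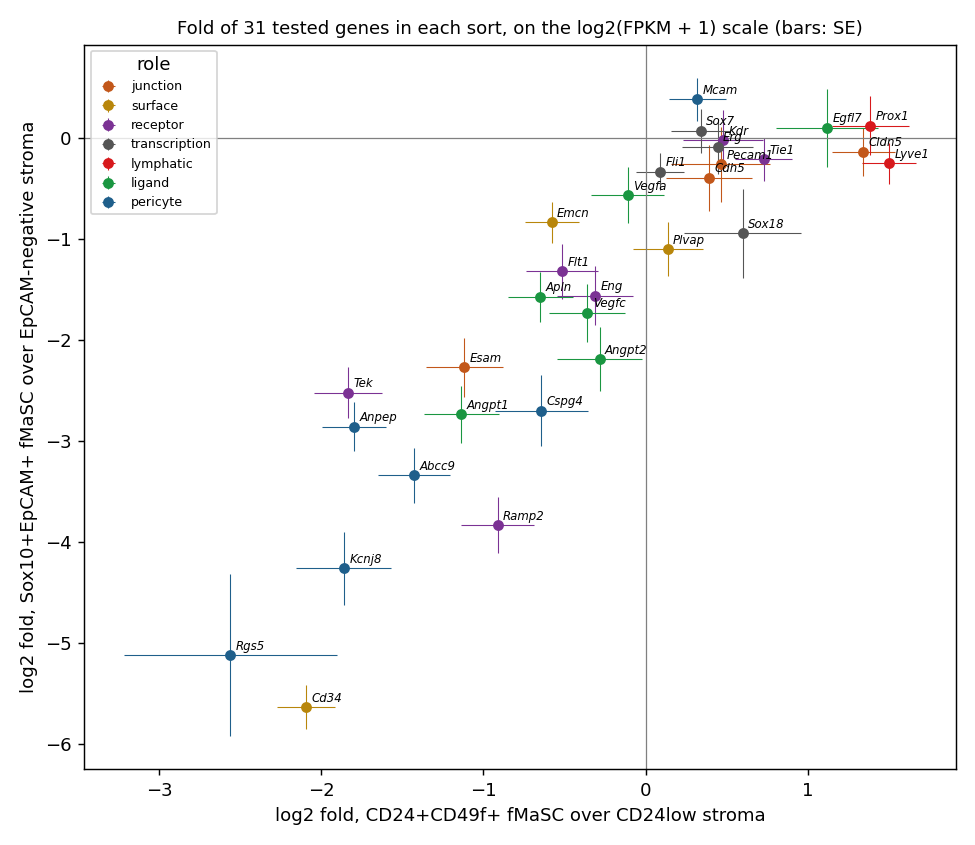
Each point is 1 of the 31 tested genes, with its log2 fold change of CD24+CD49f+ fMaSC over CD24low stroma on the x axis and of Sox10+EpCAM+ fMaSC over EpCAM-negative stroma on the y axis, bars showing the standard error and colours the role. Cd34, Rgs5, Kcnj8 and Abcc9 lie far below 0 on both axes, and Lyve1, Prox1, Cldn5 and Egfl7 lie above 1 on the x axis and near 0 on the y axis.

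The stretches of 150 bases directly upstream of the annotated starts of 5 of these genes are shown, as the regulatory sequence of the members on which the 2 patterns turn. Cldn5 was higher in the CD24+CD49f+ fraction, and Cd34, Tek, Kcnj8 and Abcc9 followed the stroma. Each is written 5′ to 3′ on the gene's strand, from RefSeq on GRCm38.p6, with GGAA, the core bound by ETS factors such as the members Erg and Fli1, in capitals on either strand (TTCC where it lies on the other).
Cldn5 (chr16:18776697-18776846, plus strand): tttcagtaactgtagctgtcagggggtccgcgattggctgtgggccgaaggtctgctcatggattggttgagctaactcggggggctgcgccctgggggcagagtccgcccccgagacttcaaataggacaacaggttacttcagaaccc
Cd34 (chr1:194938671-194938820, plus strand): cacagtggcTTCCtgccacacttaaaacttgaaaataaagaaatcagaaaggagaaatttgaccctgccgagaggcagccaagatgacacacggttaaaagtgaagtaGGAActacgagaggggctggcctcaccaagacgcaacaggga
Tek (chr4:94739139-94739288, plus strand): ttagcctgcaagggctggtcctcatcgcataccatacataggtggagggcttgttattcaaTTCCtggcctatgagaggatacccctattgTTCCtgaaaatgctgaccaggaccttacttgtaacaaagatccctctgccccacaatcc
Kcnj8 (chr6:142571615-142571764, minus strand): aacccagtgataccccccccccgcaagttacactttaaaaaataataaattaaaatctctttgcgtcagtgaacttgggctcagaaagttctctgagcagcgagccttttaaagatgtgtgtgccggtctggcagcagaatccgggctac
Abcc9 (chr6:142702275-142702424, minus strand): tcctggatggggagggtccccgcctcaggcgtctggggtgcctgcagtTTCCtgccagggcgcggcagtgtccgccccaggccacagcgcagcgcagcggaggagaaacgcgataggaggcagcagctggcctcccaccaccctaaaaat
The core occurs 2 times upstream of Cd34, 2 times upstream of Tek and 1 time upstream of Abcc9. These letters are not in the windows of Cldn5 and Kcnj8. RefSeq promoters were matched for 22 of the 36 genes, in 28 windows, of which 22 (78.6%) held the core, against 80.8% of all 32851 promoters over the same length. A match to so short a core is a description of the sequence only.

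Facts of the whole set of libraries bear on the vascular levels. Steps between the lowest FPKM values put roughly 25.2 M to 38.0 M fragments behind each library. The sorted surface genes followed the labels: Epcam was 88.5 to 230.3 FPKM in the 4 fMaSC libraries and 0.428 to 1.19 in the 3 stromal ones, Sox10 58.0 to 110.3 against 0.493 to 1.55, Cd24a 161 to 399 against 5.97 to 12.1, and Itga6, which encodes CD49f, 77.2 to 146 against 19.6 to 22.3. CD24+CD49f+ fMaSC replicate 1 stands apart by its erythroid genes, whose 7 markers sum to 6870 FPKM there, 731 in replicate 2 and 85.3 to 218 in the other libraries. Without that library Tie1, Erg, Sox7, Lyve1 and Prox1 no longer reached 1 FPKM in 2 libraries, so 26 vascular genes were tested, beside 31 with it. Lyve1 and Prox1 were 2 of the 3 called higher in the CD24 sort with it. The Angpt1 call of that sort was lost. As that fit leaves 1 CD24+CD49f+ library, its counts are not compared here with those of the full fit.

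Summed over 10 endothelial markers, all from the 36 genes, the level was 48.9 and 44.6 FPKM in CD24+CD49f+ fMaSC, 32.7 and 26.5 in its CD24low stroma, 9.79 and 10.1 in Sox10+EpCAM+ fMaSC and 19.9 in EpCAM-negative stroma. These were Pecam1, Cdh5, Kdr, Tie1, Emcn, Cldn5, Esam, Egfl7, Sox17 and Sox18. The fMaSC mean was 158% of the stromal mean in the first sort and 50.1% in the second. Without Egfl7 and Cldn5, the highest of the 10 in CD24+CD49f+ fMaSC, it was 112% and 30.4%, a split chosen after the values were seen. For 20 endothelial genes outside the 36 the share was 106% and 46.4%. In both cases the CD24+CD49f+ replicates lay on either side of the stromal mean. They stood at 93.2% and 130% without Egfl7 and Cldn5, and at 96.9% and 114% for the 20 genes. Members outside the 10, such as Cd34, Tek and Ramp2, had lower means in CD24+CD49f+ fMaSC than in its stroma. For 8 pericyte markers, 4 of them from the 36, the shares were 31.5% and 6.97%, and for 9 fibroblast markers 38.0% and 0.933%. The CD24+CD49f+ replicates differed in opposite directions, at 29.9% and 46.1% for the fibroblast and 35.5% and 27.5% for the pericyte sum, and whether the lists differ was not tested. What part these other cells had in the levels of single vascular genes was not tested.

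**Figure D3:**
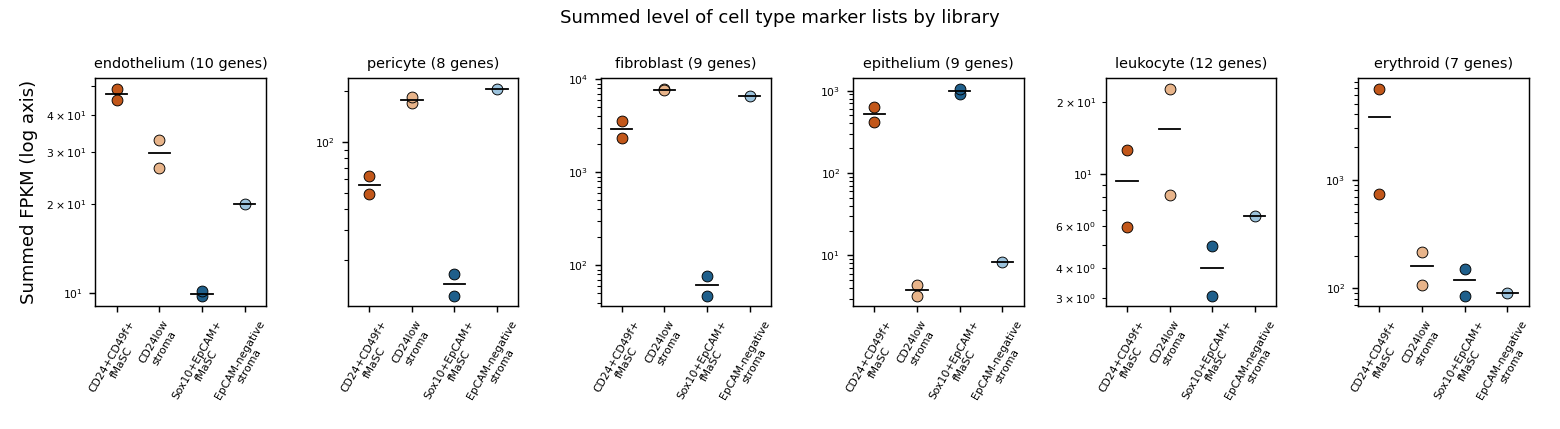
Summed FPKM of 6 cell type marker lists on log axes, 1 point per library and a bar at each group's mean. Fibroblast and pericyte sums are high in the stroma, intermediate in CD24+CD49f+ fMaSC and low in Sox10+EpCAM+ fMaSC, while the endothelial sum is highest in CD24+CD49f+ fMaSC.

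Among the junction genes, Pecam1 and Cdh5 were detected in every library despite lineage depletion. Pecam1 was 4.27 and 5.27 FPKM in CD24+CD49f+ fMaSC, 4.5 and 2.16 in its CD24low stroma, 0.980 and 1.62 in Sox10+EpCAM+ fMaSC and 1.73 in EpCAM-negative stroma. Cdh5 was 3.53 and 6.14 FPKM in CD24+CD49f+ fMaSC, 3.98 and 2.77 in its CD24low stroma, 0.857 and 0.743 in Sox10+EpCAM+ fMaSC and 1.36 in EpCAM-negative stroma. In both sorts the fMaSC and stromal levels lay within 1 log2 unit of each other: for Pecam1 the log2 fold change was 0.46 (SE 0.30, adjusted p = 0.410) in the CD24 sort and -0.26 (SE 0.37, adjusted p = 0.627) in the Sox10 sort, and for Cdh5 it was 0.39 (SE 0.27, adjusted p = 0.425) and -0.39 (SE 0.33, adjusted p = 0.397), all by limma.

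Claudin 5 (Cldn5), the main tight-junction claudin of endothelium, departed from them. Cldn5 was 9.96 and 7.83 FPKM in CD24+CD49f+ fMaSC, 3.29 and 2.51 in its CD24low stroma, 1.18 and 1.01 in Sox10+EpCAM+ fMaSC and 1.3 in EpCAM-negative stroma. Both CD24+CD49f+ libraries exceeded the other 5, and the log2 fold change over CD24low stroma was 1.34 (SE 0.19, adjusted p = 0.0101). Without CD24low stroma replicate 2 that call was lost (adjusted p = 0.0837). Esam, an adhesion molecule that endothelium shares with platelets, went the other way. Esam stood at 6.73 and 7.34 FPKM in CD24low and 7.33 in EpCAM-negative stroma, at 3.59 and 1.98 in CD24+CD49f+ fMaSC, and at 0.819 and 0.643 in Sox10+EpCAM+ fMaSC. It was lower in the fMaSC fraction of both sorts, by log2 fold changes of -1.12 (SE 0.24, adjusted p = 0.0361) and -2.27 (SE 0.29, adjusted p = 0.00313), with the 3 stromal libraries within 1 FPKM of each other. The call for Esam in the CD24 sort was lost under 5 of 8 settings and without either CD24low or either Sox10+EpCAM+ library, and that in the Sox10 sort with none of the 6 that could be left out.

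Among the surface proteins of the endothelium, Cd34 had the highest levels. Cd34 stood at 129.8 and 143 FPKM in CD24low and 109 in EpCAM-negative stroma, at 33.5 and 29.0 in CD24+CD49f+ fMaSC, and at 1.08 and 1.34 in Sox10+EpCAM+ fMaSC. CD34 is a sialomucin of endothelium, blood progenitors and many fibroblasts, and its stromal levels were the highest of any of the 36 genes. Its log2 fold change was -2.09 (SE 0.18, adjusted p = 0.00175) in the CD24 sort and -5.64 (SE 0.22, adjusted p = 0.000260) in the Sox10 sort, and both calls were kept in all 8 settings and with each library that could be left out. Emcn, the sialomucin of capillary and venous endothelium, was expressed at low levels. Emcn stood at 1.45 and 1.97 FPKM in CD24low and 1.18 in EpCAM-negative stroma, at 0.847 and 0.768 in CD24+CD49f+ fMaSC, and at 0.169 and 0.283 in Sox10+EpCAM+ fMaSC. It was called in the Sox10 sort, at -0.83 (SE 0.20, adjusted p = 0.0302), and not in the CD24 sort, at -0.58 (SE 0.17, adjusted p = 0.0853). Plvap, which forms the diaphragms of fenestrated endothelium, varied little within the CD24 sort. Plvap was 3.07 and 3.39 FPKM in CD24+CD49f+ fMaSC, 3.6 and 2.21 in its CD24low stroma, 0.452 and 0.645 in Sox10+EpCAM+ fMaSC and 2.31 in EpCAM-negative stroma. It was lower in Sox10+EpCAM+ fMaSC than in EpCAM-negative stroma, at -1.10 (SE 0.26, adjusted p = 0.0287). Leaving out either Sox10+EpCAM+ library ended the Sox10-sort calls of both Emcn and Plvap, and quantile scaling that of Emcn. Vwf, the clotting factor stored in endothelial granules, ranged from 0.133 to 0.579 FPKM and was not tested.

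**Figure D4:**
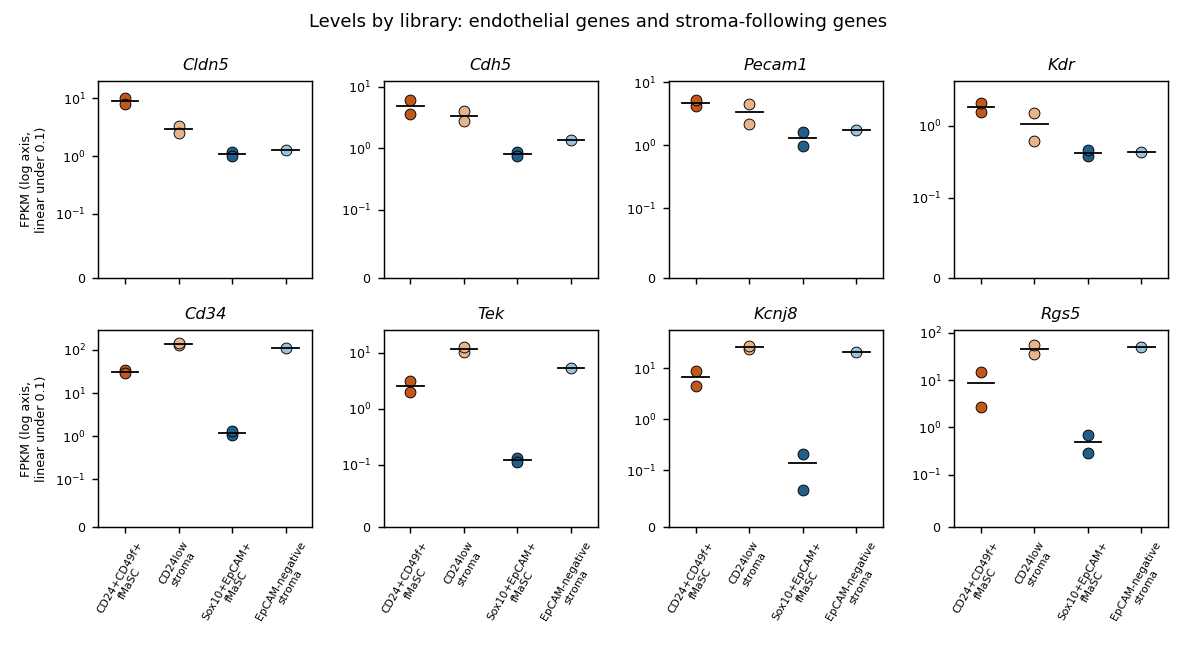
FPKM per library on axes that are logarithmic above 0.1 and linear below, for 8 of the genes, with a bar at each group's mean. Cldn5 is highest in both CD24+CD49f+ libraries, whereas Cd34, Tek, Kcnj8 and Rgs5 are highest in the 3 stromal libraries and lowest in both Sox10+EpCAM+ libraries.

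Among the receptors, Kdr, the main growth factor receptor of blood endothelium, showed no call in either sort. Kdr read 1.54 and 2.09 FPKM in CD24+CD49f+ fMaSC and 0.377 and 0.460 in Sox10+EpCAM+ fMaSC, against 1.5 and 0.613 in the CD24low and 0.436 in the EpCAM-negative stroma. Flt1, the high-affinity receptor that also acts as a decoy, was lower in Sox10+EpCAM+ fMaSC than in its stroma. Flt1 stood at 3.0 and 1.74 FPKM in CD24low and 2.76 in EpCAM-negative stroma, at 1.14 and 1.51 in CD24+CD49f+ fMaSC, and at 0.479 and 0.543 in Sox10+EpCAM+ fMaSC. The CD24low and CD24+CD49f+ ranges of Flt1 did not overlap, but only the Sox10-sort difference was called, at -1.32 (SE 0.27, adjusted p = 0.0171), and it was lost without either Sox10+EpCAM+ library.

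Of the angiopoietin receptors, Tek had its highest levels in the stroma and its partner Tie1 in CD24+CD49f+ fMaSC. Tek stood at 10.5 and 12.6 FPKM in CD24low and 5.45 in EpCAM-negative stroma, at 1.99 and 3.11 in CD24+CD49f+ fMaSC, and at 0.134 and 0.114 in Sox10+EpCAM+ fMaSC. All 3 stromal libraries exceeded all 4 fMaSC libraries, with log2 fold changes of -1.83 (SE 0.21, adjusted p = 0.00467) and -2.52 (SE 0.26, adjusted p = 0.00145). Without CD24low stroma replicate 2 the first just missed the threshold (adjusted p = 0.0510). Tie1 read 1.74 and 1.56 FPKM in CD24+CD49f+ fMaSC and 0.247 and 0.272 in Sox10+EpCAM+ fMaSC, against 0.810 and 0.407 in the CD24low and 0.457 in the EpCAM-negative stroma. Tie1 was highest in both CD24+CD49f+ libraries, at 0.73 (SE 0.18, adjusted p = 0.0530) over CD24low stroma, which is not a call. The difference between Tek and Tie1 in their folds was not tested.

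Endoglin (Eng), a co-receptor for transforming growth factor beta ligands, and Ramp2, which pairs with Calcrl as the adrenomedullin receptor, were well expressed outside Sox10+EpCAM+ fMaSC. Eng stood at 9.88 and 8.77 FPKM in CD24low and 10.5 in EpCAM-negative stroma, at 5.81 and 9.12 in CD24+CD49f+ fMaSC, and at 3.24 and 2.56 in Sox10+EpCAM+ fMaSC. Ramp2 stood at 31.1 and 40.8 FPKM in CD24low and 33.3 in EpCAM-negative stroma, at 16.4 and 20.8 in CD24+CD49f+ fMaSC, and at 1.7 and 1.15 in Sox10+EpCAM+ fMaSC. In the Sox10 sort both were lower in fMaSC, Eng at -1.56 (SE 0.29, adjusted p = 0.0115) and Ramp2 at -3.83 (SE 0.28, adjusted p = 0.000519), and in the CD24 sort neither was called, at -0.31 (SE 0.24) and -0.91 (SE 0.23). The Eng call was lost without either Sox10+EpCAM+ library. Aplnr, the apelin receptor, was below the minimum for a test. Aplnr stood at 1.18 and 0.906 FPKM in CD24low and 0.739 in EpCAM-negative stroma, at 0.547 and 0.587 in CD24+CD49f+ fMaSC, and at 0.0787 and 0.324 in Sox10+EpCAM+ fMaSC. Robo4, an endothelial guidance receptor, ranged from 0.197 to 0.755 FPKM and was likewise not tested.

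The endothelial transcription factors were low, and none was called against its stroma in either sort. Erg and Fli1, ETS factors that maintain endothelial identity, ranged from 0.196 to 1.29 and from 0.426 to 1.20 FPKM. Sox7, Sox17 and Sox18, the SOXF group of vessel development, ranged from 0.252 to 1.19, from 0.136 to 0.604 and from 0.483 to 8.88 FPKM. Sox18, a lymphatic and arterial regulator, had the widest replicate spread of them. Sox18 read 3.45 and 8.88 FPKM in CD24+CD49f+ fMaSC and 0.483 and 0.484 in Sox10+EpCAM+ fMaSC, against 3.51 and 3.26 in the CD24low and 1.85 in the EpCAM-negative stroma. Its replicates in CD24+CD49f+ fMaSC differed more than the groups of that sort did, and the log2 fold change was 0.60 (SE 0.36).

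Of the lymphatic genes, Lyve1, Prox1 and Flt4 had their highest levels in the CD24+CD49f+ fraction. Lyve1 lies at chr7:110850607-110863239, minus strand, and Prox1 at chr1:190118035-190170714, minus strand. Lyve1 read 3.22 and 2.52 FPKM in CD24+CD49f+ fMaSC and 0.0274 and 0.125 in Sox10+EpCAM+ fMaSC, against 0.313 and 0.410 in the CD24low and 0.279 in the EpCAM-negative stroma. Prox1 read 1.83 and 3.22 FPKM in CD24+CD49f+ fMaSC and 0.290 and 0.580 in Sox10+EpCAM+ fMaSC, against 0.403 and 0.243 in the CD24low and 0.310 in the EpCAM-negative stroma. Flt4 read 0.918 and 0.816 FPKM in CD24+CD49f+ fMaSC and 0.0329 and 0.141 in Sox10+EpCAM+ fMaSC, against 0.144 and 0.105 in the CD24low and 0.176 in the EpCAM-negative stroma. Both CD24+CD49f+ libraries exceeded the other 5 for each of the 3 genes, and the log2 fold change over CD24low stroma was 1.5 (SE 0.16, adjusted p = 0.00416) for Lyve1 and 1.39 (SE 0.24, adjusted p = 0.0187) for Prox1. Lyve1 and Prox1 reached 1 FPKM only in the CD24+CD49f+ libraries, so they entered the test only through the group in which they were high, and their calls add no support to the count of higher genes. Flt4, the VEGF-C receptor, was under the minimum; in the fit without a minimum it was higher by 0.73 (adjusted p = 0.0224). The Lyve1 call was kept in the 7 settings and 5 left-out fits that kept the gene in the test, while that of Prox1 was lost without either CD24low library, with TPM scaling and with no minimum on level. About 330 and 193 fragments lay behind the Lyve1 values of CD24+CD49f+ fMaSC, and about 2 to 28 behind each of the others.

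Of 8 further lymphatic genes, 3 were higher (all genes, 7.78%) and 0 lower (all genes, 2.94%) in the CD24 sort. They were Ccl21a, a chemokine of lymphatic vessels, Mmrn1, a multimerin of lymphatic endothelium and platelets, and Reln, a secreted glycoprotein. Ccl21a read 14.9 and 6.76 FPKM in CD24+CD49f+ fMaSC and 0.0159 and 0.164 in Sox10+EpCAM+ fMaSC, against 0.517 and 0.449 in the CD24low and 0.0826 in the EpCAM-negative stroma. Mmrn1 read 5.09 and 3.02 FPKM in CD24+CD49f+ fMaSC and 0.0664 and 0.0142 in Sox10+EpCAM+ fMaSC, against 0.0845 and 0.334 in the CD24low and 0.00831 in the EpCAM-negative stroma. Reln read 6.39 and 9.1 FPKM in CD24+CD49f+ fMaSC and 3.94 and 5.07 in Sox10+EpCAM+ fMaSC, against 1.94 and 2.13 in the CD24low and 2.4 in the EpCAM-negative stroma. The log2 fold changes were 2.90 (SE 0.33, adjusted p = 0.00475) for Ccl21a, 2.04 (SE 0.24, adjusted p = 0.00496) for Mmrn1 and 1.51 (SE 0.22, adjusted p = 0.00982) for Reln. Ccl21a has near-identical copies in the mouse genome and 2 rows in the table, of which the higher was used, so its level is uncertain. Ccl21a and Mmrn1, like Lyve1, reached 1 FPKM only in the CD24+CD49f+ libraries, so they were tested only because they were high there. Their calls add no support to the count of 3. The other 5 genes were not called in that sort, Pdpn at 0.18 and Itga9 at 0.41, and Nr2f2, Foxc2 and Tbx1 below 0 at -0.22, -0.32 and -0.27. In the Sox10 sort Pdpn was higher, at 1.31, and Nr2f2, Foxc2 and Tbx1 were lower, at -2.86, -1.10 and -1.10. By group mean Pdpn and Itga9 were highest in Sox10+EpCAM+ fMaSC, at 39.5 and 10.9 FPKM.

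Lyve1 is also carried by some tissue macrophages. Of 6 markers of such cells, Mrc1, Cd163, F13a1, Csf1r and Folr2 stayed under 1 FPKM in all 7 libraries, at most 0.443 in CD24+CD49f+ fMaSC. The sixth, Cbr2, was 2.96 to 9.76 FPKM in all 4 fMaSC libraries, those of Sox10+EpCAM+ fMaSC included, and 0.105 to 0.271 in the stroma. The summed platelet and megakaryocyte markers averaged 3.33 FPKM in CD24+CD49f+ fMaSC, beside 4.72 for CD24low stroma.

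**Figure D5:**
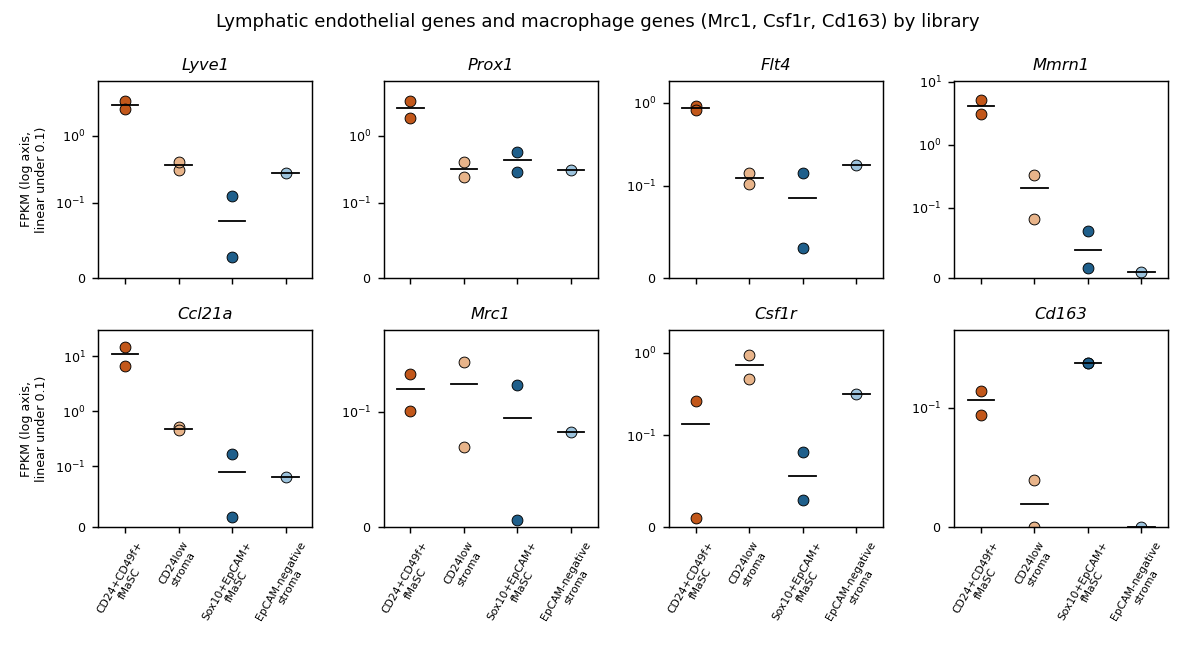
FPKM per library, on axes logarithmic above 0.1 and linear below, for 5 lymphatic endothelial genes and the macrophage genes Mrc1, Csf1r and Cd163, with a bar at each group's mean. The 5 lymphatic genes shown are highest in both CD24+CD49f+ libraries, and the macrophage genes shown stay below 1 FPKM in all libraries. Lymphatic genes not shown differed: Pdpn and Itga9 had their highest mean in Sox10+EpCAM+ fMaSC, and Nr2f2, Foxc2 and Tbx1 in stroma. The macrophage marker Cbr2, also not shown, averaged 9.19 FPKM in Sox10+EpCAM+ fMaSC. Reln, not shown either, was highest by mean in CD24+CD49f+ fMaSC.

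Among the ligands, Vegfa was by far the most abundant per length, and was present in every fraction. Vegfa stood at 71.7 and 57.1 FPKM in CD24low and 55.2 in EpCAM-negative stroma, at 51.6 and 67.9 in CD24+CD49f+ fMaSC, and at 37.1 and 36.8 in Sox10+EpCAM+ fMaSC. It was not called in any comparison, with log2 fold changes of -0.11 (SE 0.23) and -0.57 (SE 0.28) in the 2 sorts. Vegfc, the lymphatic growth factor, was lower in Sox10+EpCAM+ fMaSC. Vegfc stood at 3.55 and 3.18 FPKM in CD24low and 3.83 in EpCAM-negative stroma, at 1.75 and 3.19 in CD24+CD49f+ fMaSC, and at 0.546 and 0.374 in Sox10+EpCAM+ fMaSC. Its log2 fold change was -1.73 (SE 0.29, adjusted p = 0.00774) in the Sox10 sort and -0.36 (SE 0.23), not called, in the CD24 sort. The call was lost without Sox10+EpCAM+ fMaSC replicate 2.

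The angiopoietins were expressed in the stroma and in CD24+CD49f+ fMaSC. Angpt1 stood at 5.57 and 8.92 FPKM in CD24low and 6.59 in EpCAM-negative stroma, at 2.47 and 2.89 in CD24+CD49f+ fMaSC, and at 0.0980 and 0.179 in Sox10+EpCAM+ fMaSC. Angpt2 stood at 4.82 and 7.48 FPKM in CD24low and 4.15 in EpCAM-negative stroma, at 3.83 and 5.9 in CD24+CD49f+ fMaSC, and at 0.0886 and 0.171 in Sox10+EpCAM+ fMaSC. Angpt1 was lower in the fMaSC of both sorts, at -1.14 (SE 0.23, adjusted p = 0.0316) and -2.74 (SE 0.28, adjusted p = 0.00154), while Angpt2 was lower in the Sox10 sort, at -2.19 (SE 0.32, adjusted p = 0.00498), and not called in the CD24 sort, at -0.28 (SE 0.26). The difference of these folds between sorts was not called for either gene, with adjusted p = 0.121 for Angpt1 and 0.109 for Angpt2. In the CD24 sort the Angpt1 call was lost under 5 of 8 settings and by leaving out any 1 of 4 libraries: either Sox10+EpCAM+ one, CD24+CD49f+ replicate 1, or replicate 2 of the CD24low stroma. Apelin (Apln), the ligand of Aplnr made by endothelial tip cells, was lower in Sox10+EpCAM+ fMaSC. Apln stood at 2.33 and 1.64 FPKM in CD24low and 2.42 in EpCAM-negative stroma, at 1.1 and 0.693 in CD24+CD49f+ fMaSC, and at 0.0784 and 0.225 in Sox10+EpCAM+ fMaSC. Its log2 fold change there was -1.57 (SE 0.25, adjusted p = 0.00619). Egfl7, a matrix-bound factor of endothelium, was present in all libraries. Egfl7 read 19.5 and 9.62 FPKM in CD24+CD49f+ fMaSC and 4.4 and 4.5 in Sox10+EpCAM+ fMaSC, against 6.36 and 5.26 in the CD24low and 4.08 in the EpCAM-negative stroma. Its log2 fold change of 1.12 (SE 0.32) in the CD24 sort was not called, with replicate 1 of CD24+CD49f+ fMaSC well above replicate 2.

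By group mean the pericyte genes other than Mcam were lower in fMaSC than in stroma in both sorts. In the CD24 sort Rgs5 and Cspg4 were not called. Rgs5 stood at 35.1 and 56.2 FPKM in CD24low and 50.3 in EpCAM-negative stroma, at 14.9 and 2.73 in CD24+CD49f+ fMaSC, and at 0.289 and 0.685 in Sox10+EpCAM+ fMaSC. Rgs5, a regulator of G protein signalling, differed several-fold between the CD24+CD49f+ replicates, and with that spread its log2 fold change of -2.56 (SE 0.66, adjusted p = 0.0634) in the CD24 sort was not called. In the Sox10 sort it was -5.12 (SE 0.81, adjusted p = 0.00636).

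Kcnj8 and Abcc9 encode the pore and the regulatory subunit of the vascular ATP-sensitive potassium channel. They are neighbours on chromosome 6, Kcnj8 at chr6:142564837-142571614, minus strand, and Abcc9 at chr6:142587862-142702315, minus strand, separated by 16247 bases on GRCm38. Kcnj8 stood at 23.6 and 27.9 FPKM in CD24low and 20.8 in EpCAM-negative stroma, at 8.77 and 4.51 in CD24+CD49f+ fMaSC, and at 0.0661 and 0.212 in Sox10+EpCAM+ fMaSC. Abcc9 stood at 11.2 and 14.6 FPKM in CD24low and 9.69 in EpCAM-negative stroma, at 3.4 and 4.98 in CD24+CD49f+ fMaSC, and at 0.0278 and 0.0805 in Sox10+EpCAM+ fMaSC. All 3 stromal libraries lay above all 4 fMaSC libraries for both genes. The log2 fold changes were -1.86 (SE 0.29, adjusted p = 0.0138) and -1.43 (SE 0.22, adjusted p = 0.0132) in the CD24 sort and -4.26 (SE 0.36, adjusted p = 0.000775) and -3.34 (SE 0.27, adjusted p = 0.000694) in the Sox10 sort. The ratio of Kcnj8 to Abcc9 FPKM was 1.91 to 2.15 in the 3 stromal libraries and 2.38 and 2.63 in Sox10+EpCAM+ fMaSC, but 2.58 and 0.905 in the CD24+CD49f+ replicates. In the CD24 sort, leaving out CD24low stroma replicate 2 ended both calls, and leaving out replicate 1 ended that of Kcnj8.

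Cspg4 encodes the NG2 proteoglycan and Anpep the aminopeptidase CD13, both on the surface of pericytes. Cspg4 stood at 8.46 and 5.75 FPKM in CD24low and 8.23 in EpCAM-negative stroma, at 3.02 and 5.51 in CD24+CD49f+ fMaSC, and at 0.372 and 0.472 in Sox10+EpCAM+ fMaSC. Anpep stood at 24.1 and 20.4 FPKM in CD24low and 16.8 in EpCAM-negative stroma, at 5.12 and 6.27 in CD24+CD49f+ fMaSC, and at 1.2 and 1.73 in Sox10+EpCAM+ fMaSC. Anpep was lower in the fMaSC of both sorts, at -1.80 (SE 0.20, adjusted p = 0.00419) and -2.86 (SE 0.24, adjusted p = 0.000791), and Cspg4 was lower in the Sox10 sort, at -2.70 (SE 0.35, adjusted p = 0.00326), and not called in the CD24 sort, at -0.64 (SE 0.29). Mcam (CD146), carried by pericytes, endothelium and some epithelia, varied little. Mcam was 36.0 and 33.5 FPKM in CD24+CD49f+ fMaSC, 25.9 and 29.5 in its CD24low stroma, 33.6 and 37.5 in Sox10+EpCAM+ fMaSC and 27.0 in EpCAM-negative stroma. All 7 Mcam values lay within 25.9 to 37.5 FPKM, and no comparison called it.

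Of 17 further mural cell genes, all tested, 4 were lower in the fMaSC of the CD24 sort (all genes, 2.94%). In those of the Sox10 sort 14 were lower (all genes, 13.6%), and 0 were higher in either sort (all genes, 7.78% and 12.5%). The 4 called in the CD24 sort were Myh11, smooth muscle myosin, at -1.99, Pdgfrb, the receptor by which pericytes are recruited, at -1.63, Ndufa4l2 at -1.59 and Foxs1 at -0.89. Rgs4 at -1.29 and Tagln at -1.16, with larger folds than Foxs1, were not called. Among the Sox10-sort calls Pdgfrb led at -5.09, before Heyl at -3.82, Foxs1 at -3.80 and the endothelin receptor Ednra at -3.56. Medians of the list were -0.89 and -2.86. Fibroblasts express Pdgfrb too. By group mean the fMaSC sums of this list and of the fibroblast markers were both below stroma in each sort. Between the CD24+CD49f+ replicates they went in opposite directions, at 62.4% and 44.9% of stroma for this list and 29.9% and 46.1% for the fibroblast markers. The part of fibroblasts in these levels was not tested.

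Of 20 further endothelial genes 10 were tested. Among these, 1 was lower in the CD24 sort (all genes, 2.94%) and 3 in the Sox10 sort (all genes, 13.6%). Higher in either sort were 0 (all genes, 7.78% and 12.5%). The adhesion receptor Adgrf5, deposited as Gpr116, was lower in both, at -0.85 and -1.51, and Clec14a at -1.81 and the sphingosine receptor S1pr1 at -1.76 were lower in the Sox10 sort. Of 22 further genes of vascular signalling 18 were tested. In the CD24 sort 1 was higher, Pdgfb at 0.72 (all genes, 7.78%). A further 4 were lower (all genes, 2.94%), led by Vegfd at -1.63 and Angptl4 at -1.0. In the Sox10 sort 2 were higher, Hif1a at 1.35 and Pdgfb at 0.99 (all genes, 12.5%). Another 9 were lower (all genes, 13.6%), led by the co-receptor Nrp1 at -5.09, Vegfd at -3.75, Angptl4 at -3.63 and Acvrl1 at -3.19. The counts of higher signalling genes, 1 and 2 of 18, lay near the shares of all genes and are no result about the list.

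Genes that respond to low oxygen, as Vegfa does, were compared beside Vegfa itself. Of 15, 5 were higher (all genes, 7.78%) and 0 lower (all genes, 2.94%) in the fMaSC of the CD24 sort. Ddit4 at 2.27 and Car9 at 1.42 led these. In the Sox10 sort 7 were higher (all genes, 12.5%), led by Ddit4 at 3.02 and Pgk1 at 2.46. Only 1, P4ha1, was lower there (all genes, 13.6%). Vegfa, like the rest of the list in each sort, was not called. Whether its folds differ from those that were called was not tested.

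The fMaSC fractions of the 2 sorts were then compared with each other. These libraries also enter the earlier comparisons, so the results are not independent of them. In Sox10+EpCAM+ against CD24+CD49f+ fMaSC, 0 of the 31 tested vascular genes were higher (all genes, 1.95%) and 21 were lower (all genes, 8.04%). The 21 covered each role, with Cd34 at -3.87, Ramp2 at -3.02, Kcnj8 at -2.69, Angpt2 at -2.35, Cldn5 at -2.23, Sox18 at -2.16, Lyve1 at -1.84, Cdh5 at -1.66 and Pecam1 at -1.34. The median over the tested genes was -1.44, beside -0.01 over all genes. Of the 21, Tie1, Lyve1 and Prox1 reached 1 FPKM only in CD24+CD49f+ fMaSC and so were tested only because they were high there. The calls of Cldn5, Cd34, Ramp2 and Abcc9 were kept in all 8 settings and with each of the 7 libraries left out, and that of Lyve1 in the 7 settings and 5 left-out fits in which it was tested. Leaving out Sox10+EpCAM+ replicate 1 or 2 reduced the count to 5 or 7, and the share of all genes called lower also fell, from 8.04% to 1.73% or 2.22%.

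Sox10+EpCAM+ fMaSC libraries still held some transcripts of the 36 genes, but 8 and 7 of the 10 endothelial markers were under 1 FPKM there. Between 8 and 9 of the 36 genes reached 1 FPKM in these libraries, against 29 to 30 in CD24+CD49f+ fMaSC and 24 to 26 in the stroma. Of all 38579 genes, 12790 and 12877 did so, against 13639 and 13552 in CD24+CD49f+ fMaSC and 12864 to 13067 in the stroma. Apart from Vegfa, Mcam and Egfl7, the highest were Eng at 3.24 and 2.56 FPKM, Anpep at 1.20 and 1.73, and Ramp2 at 1.70 and 1.15.

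The stromal fractions could be compared only through the single EpCAM-negative library. No vascular gene was called higher or lower by limma in EpCAM-negative against CD24low stroma, where 0.0139% of all genes were called higher and 0.0139% lower. At an unadjusted p under 0.05 there were 3 of the 31 tested, beside 436 of 14418 over all genes. All 3 were lower in the EpCAM-negative library: Tek at -0.96 (SE 0.26), Cdh5 at -0.88 (SE 0.33) and Cldn5 at -0.76 (SE 0.24). For Tek, Cdh5 and Cldn5 the EpCAM-negative value lay below both CD24low values. With 1 library on one side, these missed calls do not show that the levels are equal.

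The fold of fMaSC over stroma was also tested for a difference between the sorts, as the Sox10-sort fold minus the CD24-sort fold. Of the 31 genes 0 were higher (all genes, 0.0763%) and 3 were lower (all genes, 1.44%). They were Cd34 at -3.55 (SE 0.28, adjusted p = 0.0126), Ramp2 at -2.92 (SE 0.36, adjusted p = 0.0280) and Lyve1 at -1.75 (SE 0.26, adjusted p = 0.0401). For Cd34 and Ramp2 the fall below stroma was deeper in the Sox10 sort. For Lyve1 the fold was above 0 in the CD24 sort, at 1.5, and near 0 in the Sox10 sort, at -0.25. In the Sox10 sort its mean was 0.0763 FPKM in fMaSC and its stromal value 0.279. At such low levels a fold of log2(FPKM + 1) near 0 does not show that they are equal. Lyve1 reached 1 FPKM only in the CD24+CD49f+ libraries, so it was tested only because it was high there. Its call adds no support to the count of 3. Each of the 3 calls was lost without either CD24low library or either Sox10+EpCAM+ library. The Ramp2 call was also lost with no minimum on level and with TPM scaling, and the Lyve1 call was kept in 1 of 6 settings, median-ratio scaling. Cldn5, at -1.48 (SE 0.31, adjusted p = 0.0975), and Kcnj8, at -2.40 (SE 0.46, adjusted p = 0.0798), were not called, so their different results in the 2 sorts are not shown to differ.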

How the data were processed

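RNA was sequenced from 7 libraries of sorted cells, 2 per group except 1 for EpCAM-negative stroma, as paired ends of 100 bases, per the labels' protocols. The submitters' processing notes name the aligner STAR, Cufflinks and the build GRCm38, also called mm10. Per the file headers, the deposited values are FPKM, 1 column per library. All 7 columns were used and 8 added sequences were left out. Rows were matched to the 36 symbols with letter case ignored, and loci come from GENCODE on GRCm38.

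The members and gene lists were chosen with earlier results of these data known. From the deposited FPKM, log2(FPKM + 1) was computed, genes with at least 1 FPKM in 2 libraries were kept (14418), and limma 3.58.1 in R 4.3.3 fitted a mean for each of 4 groups, leaving 3 residual degrees of freedom, with empirical Bayes moderation along a trend in level. Its two-sided tests were adjusted by Benjamini-Hochberg over all genes tested, at 0.05, so p-values measure the spread between libraries that the labels call biological replicates. The 5 comparisons share libraries. Since FPKM are not counts, no count model was run. The lowest FPKM lie near whole multiples of 1 fragment (76.9% to 83.6% within 0.15), which gave the approximate depths. Summed FPKM ran from 378952 to 752737 per library.

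Values by library were given for genes called in any comparison and for 18 others fixed by name, and for the other lists the counts and up to 4 of the largest called folds. Replicate numbers were given in series order and do not pair libraries. Alternatives were a pseudocount of 0.1, no minimum or 5 FPKM, TPM, median-ratio and quantile scaling, no trend, only the compared groups, and each library left out. Promoters come from RefSeq (GRCm38.p6), 24 of 28 member windows having the bases after the start inside a GENCODE transcript of the gene. Figures were drawn with matplotlib 3.10.9 in Python 3.11.15.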

Additional observations from a re-analysis of the deposited data

Results flagged for a closer look

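For 3 genes the fold of fMaSC over stroma differed between the sorts by limma's test of the difference itself, taken as the Sox10-sort fold minus the CD24-sort fold on the log2 scale. For Cd34 the difference was -3.55 (SE 0.28, adjusted p = 0.0126), from -2.09 in the CD24 sort and -5.64 in the Sox10 sort. For Ramp2 it was -2.92 (SE 0.36, adjusted p = 0.0280), from -0.91 and -3.83, and for Lyve1 -1.75 (SE 0.26, adjusted p = 0.0401), from 1.5 and -0.25. The 9 fibroblast markers moved in the same way, their summed level in fMaSC being 38.0% of that in stroma in the CD24 sort and 0.933% in the Sox10 sort, and their part in the differences of Cd34 and Ramp2 was not tested. Each of the 3 calls was lost without either CD24low library or either Sox10+EpCAM+ library. The Ramp2 call was also lost with no minimum on level and with TPM scaling. The Lyve1 call was lost in 5 of the 6 settings in which it was tested. These were a pseudocount of 0.1, no minimum, TPM scaling, quantile scaling and no trend. Lyve1 also reached 1 FPKM only in the CD24+CD49f+ libraries, so it was tested only because it was high there. Its call adds no support to the count of 3.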

How the results depend on the processing

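No direction of a called gene was reversed under any alternative that was run. In the CD24 sort 10 vascular genes were called, against 6 with no minimum on level, 6 with a minimum of 5 FPKM and 5 with TPM scaling, and 3 to 12 with 1 library left out. The lowest of these, 3, came without CD24low stroma replicate 2. Of the 10, Cd34 was kept in all 8 settings and 7 left-out fits, and Lyve1 in the 7 and 5 in which it was tested. In the Sox10 sort 17 were called, 12 to 18 with 1 library left out and 5 with only the compared groups in the fit, where 9 were tested and the Sox10+EpCAM+ pair alone gave the spread, and 12 were kept wherever they were tested, 3 of which were tested in all 8 settings. Between the fMaSC fractions 21 were called, 10 with no minimum, 12 with 5 FPKM, 10 with TPM scaling and 5 to 21 with 1 library left out. For the difference between sorts 3 were called, 7 with a pseudocount of 0.1, 1 with no minimum, 1 with TPM scaling and 0 to 9 with 1 library left out, 9 coming without CD24+CD49f+ fMaSC replicate 1. Calls over all genes also changed, with the settings and with a library left out, so these counts alone are no result about the vascular genes. In the CD24 sort all-gene calls went from 1545 to 1054 with no minimum, 971 with 5 FPKM and 590 with TPM scaling. For the difference between sorts they went from 218 to 421 with a pseudocount of 0.1, 254 with no minimum and 61 with TPM scaling. The cause of these changes was not tested, except that fewer genes reach the 5 FPKM minimum. Between the stromal fractions the count was 0 in each alternative that was run.

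TPM scaling moved the median log2 fold of all genes from 0.13 to -0.11 in the CD24 sort, from 0.09 to -0.63 in the Sox10 sort and from -0.01 to -0.23 between the fMaSC fractions. It also moved the split of calls over all genes, in the Sox10 sort from 12.5% higher and 13.6% lower to 3.86% and 10.9%, and between the fMaSC fractions from 1.95% and 8.04% to 0.10% and 3.38%. Quantile scaling gave 5.93% and 5.35% in the CD24 sort, beside 7.78% and 2.94%, and 3.65% and 5.66% between the fMaSC fractions. Median-ratio scaling gave 6.89% and 4.53% in the CD24 sort. No symbol was repeated, so summing rows changed nothing, and the EpCAM-negative library cannot be left out of its own comparisons. No paired analysis was possible because the labels give no replicate numbers that groups share. Depth limits genes near 0, such as Lyve1 in Sox10+EpCAM+ fMaSC replicate 1, which rests on about 2 fragments.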

Other observations

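The adrenomedullin pathway, through which Ramp2 acts, had a ligand and a partner receptor in the stroma as well. Calcrl stood at 3.27 and 4.59 FPKM in CD24low and 3.04 in EpCAM-negative stroma, at 1.51 and 1.62 in CD24+CD49f+ fMaSC, and at 0.0849 and 0.116 in Sox10+EpCAM+ fMaSC. Adm stood at 10.1 and 10.4 FPKM in CD24low and 7.31 in EpCAM-negative stroma, at 5.92 and 6.76 in CD24+CD49f+ fMaSC, and at 1.87 and 2.12 in Sox10+EpCAM+ fMaSC. Calcrl, the receptor that Ramp2 brings to the surface, was lower in the fMaSC of both sorts, at -0.93 (SE 0.18, adjusted p = 0.0285) and -1.88 (SE 0.22, adjusted p = 0.00247), and Adm, the ligand, was lower in the Sox10 sort, at -1.47 (SE 0.19, adjusted p = 0.00345). Both stromal fractions thus held Adm and Calcrl transcripts above their levels in Sox10+EpCAM+ fMaSC. Ramp3, from the list of vascular signalling genes, differed. Its mean was 3.40 FPKM in CD24+CD49f+ fMaSC, 2.14 in CD24low stroma and 2.48 in Sox10+EpCAM+ fMaSC, with 4.45 in the EpCAM-negative library.

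The neuropilins, co-receptors for semaphorins and for vascular endothelial growth factors, were lower in the Sox10+EpCAM+ than in the CD24+CD49f+ fraction. Nrp1 read 14.8 and 43.8 FPKM in CD24+CD49f+ fMaSC and 0.436 and 0.606 in Sox10+EpCAM+ fMaSC, against 47.8 and 43.6 in the CD24low and 50.6 in the EpCAM-negative stroma. Nrp2 read 7.95 and 20.1 FPKM in CD24+CD49f+ fMaSC and 0.486 and 0.706 in Sox10+EpCAM+ fMaSC, against 9.99 and 9.14 in the CD24low and 7.17 in the EpCAM-negative stroma. In Sox10+EpCAM+ against CD24+CD49f+ fMaSC, Nrp1 was lower at -4.13 (SE 0.46, adjusted p = 0.00514) and Nrp2 at -3.11 (SE 0.39, adjusted p = 0.00754). The CD24+CD49f+ replicates differed by more than 2-fold for both genes, so the size of these folds is uncertain.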
